A study of Mus musculus with 6 samples.

Results

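Noncoding and pseudogene transcripts were examined in mouse eggs that lack the kinase Mtor, the growth regulator that couples nutrients to protein synthesis. The members are the rows of the authors' table of differing genes whose biotype is anything other than protein_coding alone, and 62 of the 516 rows were taken by that rule. A further 2 rows of another biotype were not analysed here. The label holds for 37 of the 62, whose biotype names no protein-coding gene: 24 long noncoding transcripts, 11 pseudogenes and 2 small RNAs. Another 17 rows join a protein-coding gene with a miRNA, snoRNA, snRNA, lincRNA, processed transcript or pseudogene, and the last 8 hold several protein-coding genes and no noncoding one. Those 8 go against the label and are described apart, as rows of several protein-coding genes.

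Both groups were ovulated oocytes at metaphase II from C57BL/6 females killed at 24 d of age, with 3 libraries of 5 oocytes each. In the Mtor CKO group Mtor is deleted by Zp3-Cre, a recombinase driven by the promoter of an egg coat gene that is active in growing oocytes, so the surrounding somatic cells keep Mtor. The other group is labelled WT, with no floxed or Cre allele given. At 22 d of age all females received 5 IU of PMSG and, 48 h later, 5 IU of hCG, and the eggs were taken from the oviduct 14 h after that. Mtor itself was not analysed here, so the genotype labels were not checked against it. Of 18 oocyte markers, Zp2 and Nlrp5 were in the table, and both were high in every library, with Zp2 averaging 79 ± 5.57 FPKM in Mtor CKO eggs and 164 ± 17.9 FPKM in WT eggs (SD, n = 3 each). Of 17 cumulus and granulosa markers, Vcan was at 0 in the 3 Mtor CKO libraries against 4.33, 0.245 and 0 FPKM in WT, and Mro fell by 0.93 on the log2 scale. The oviduct marker Krt7 averaged 7.39 ± 2.96 FPKM in Mtor CKO eggs, against 3.48 ± 0.978 FPKM in WT eggs (adjusted p = 0.0685). The 7 other oviduct markers were not in the table, and neither were the 8 blood markers. The table holds only genes that differed, so absence from it does not say whether a marker was expressed. The part of somatic RNA in the results below was not tested.

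Long noncoding RNAs are spliced and polyadenylated like mRNAs but are not known to be translated, and many run antisense to, or overlap, a protein-coding gene. Pseudogenes are copies of genes that have lost the ability to code. In mouse oocytes their transcripts have a known role, because an RNA from a pseudogene can pair with an antisense RNA or with the mRNA of its parent gene, and Dicer cuts the duplex into small interfering RNAs. A fully grown oocyte is transcriptionally silent, so the RNA of an egg is what was stored during growth less what was degraded during maturation. The library kit primes reverse transcription with oligo(dT), so RNAs with a run of A near the end are the ones it takes up.

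Values are FPKM, sequenced fragments scaled to transcript length and to the library's mapped fragments, as the authors deposited them for each library. A row was called changed where limma on log2(FPKM + 1) gave a Benjamini-Hochberg adjusted p of at most 0.05 over the 471 rows with at least 1 FPKM in at least 3 libraries. The authors had put only genes with a difference in these same libraries into the table, so passing is not independent evidence of one. Of the 58 members tested, 11 rose and 31 fell in Mtor CKO eggs. That is 72.4% of them, beside 73.7% of all 471 tested rows, of which 13.4% rose and 60.3% fell. Among the 37 rows with no protein-coding gene 36 were tested, and 9 rose and 18 fell. The median log2 difference of the tested members was -1.01, beside -1.03 over all tested rows. The authors' q-value was at most 0.05 for 34 of the 62 members, beside 49.2% of all rows. It was so for 15 of the 37 rows with no protein-coding gene and for 15 of the 17 mixed rows. Of the 9 rises among the 37, Gm20627 had an authors' q-value of 0.00591. For the other rises it was above 0.05, from 0.0638 to 0.178. In 36 of the 62 rows the authors' gene includes transcript models they assembled, and its interval can run past the annotation, as in Gm10466 with 304506 bp against 9717 bp in GENCODE M21. Exons of 13 members, 6 of them among the 37, overlap exons of another protein-coding gene. In 46 of the 62 members the 3 Mtor CKO values and the 3 WT values did not overlap, beside 71.9% of all rows.

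**Figure D1:**
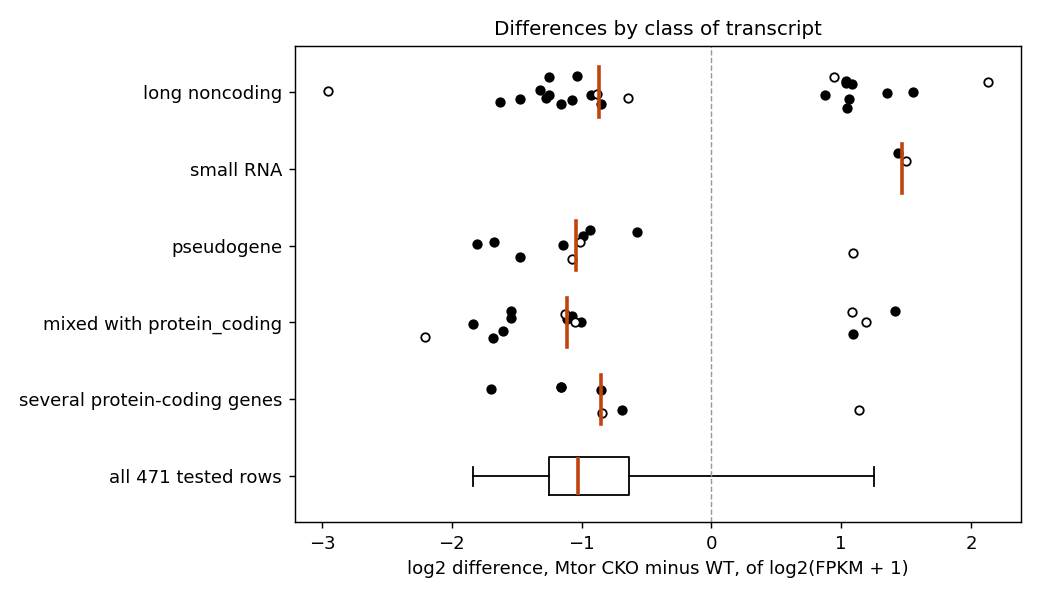
Each point is 1 tested member, by class, at its log2 difference of log2(FPKM + 1) between Mtor CKO and WT eggs. Filled points passed the adjusted p of 0.05 and open points did not. Orange lines are medians, and the box at the bottom shows the quartiles of all 471 tested rows with whiskers from the 5th to the 95th percentile. Long noncoding transcripts lie on both sides of 0, and 9 of 10 tested pseudogenes lie below it, as do 361 of all 471 tested rows.

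The number of calls depended on some single libraries. Without Mtor CKO replicate 1, 0 members passed. Leaving out Mtor CKO replicate 3 left 1, leaving out WT replicate 2 left 0, and leaving out WT replicate 3 left 0. By contrast 43 passed without Mtor CKO replicate 2 and 33 without WT replicate 1. At an unadjusted p under 0.05, 26 members passed without Mtor CKO replicate 1, 19 did so without WT replicate 2, and 34 when WT replicate 3 was left out. When each library was centred on its median over the table, which shifts every difference up by 0.75, 12 members were higher, the 11 that rose among them, and 0 were lower. By the labels every library held 5 oocytes, so the number of oocytes did not differ. For any other cells, fewer cells and less RNA per cell cannot be told apart in these bulk libraries. What a library's total did to the FPKM scale was not tested.

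The 7SK sequence is shown because its function is well known and its rise passed the test. It is transcribed from chr9:78175303-78175633 on the minus strand of GRCm38 (Rn7sk), and is 331 nt long. Its bases 1 to 120 are printed from GENCODE M21 with the letters GATC in capitals. Such GATC repeats in the first hairpin of 7SK are part of where the protein HEXIM1 binds in human cells. The whole transcript holds 3 of them, beginning at bases 13, 42 and 64 from the 5′ end.
7SK: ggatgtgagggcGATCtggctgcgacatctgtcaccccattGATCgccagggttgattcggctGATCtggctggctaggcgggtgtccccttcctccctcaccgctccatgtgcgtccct

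7SK holds the kinase P-TEFb in an inactive complex and so restrains elongation by RNA polymerase II. Its level was 79.3, 27.6 and 30.9 FPKM in Mtor CKO eggs, against 22.1, 10.1 and 13.2 FPKM in WT eggs. Every Mtor CKO library was above every WT library, and Mtor CKO replicate 1 stood well above the others. The means were 46 ± 28.9 FPKM in Mtor CKO eggs and 15.2 ± 6.23 FPKM in WT eggs (SD, n = 3 each), and the log2 difference was 1.44 with a standard error of 0.49 (limma adjusted p = 0.0396). RNA polymerase III makes 7SK and does not polyadenylate it, and how an oligo(dT) kit came to sample it was not tested. There are 3 other annotated genes at least 97% identical to it over at least 0.5 of its length, and how the authors shared reads among them is not given in the sources used here.

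The row named Vault is the vault RNA Vaultrc5, the 143 nt RNA of a large cytoplasmic ribonucleoprotein particle of uncertain function. It had 434, 113 and 1231 FPKM in Mtor CKO eggs, against 75.4, 146 and 239 FPKM in WT eggs. The groups overlapped, since Mtor CKO replicate 2 lay below WT replicates 2 and 3. Its log2 difference of 1.5 had a standard error of 0.81 and an adjusted p of 0.103.

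Of the 24 long noncoding rows all were tested, and 8 rose and 11 fell, 79.2% against the 73.7% over the table. The authors' biotypes for these are 14 lincRNA, 5 antisense, 3 processed_transcript, 1 sense_intronic and 1 joint miRNA and non_coding row. The median log2 difference was -0.86, beside -1.03 over all tested rows. Among lincRNAs 4 rose and 6 fell, among antisense transcripts 2 rose and 3 fell, and among processed transcripts 2 rose and 0 fell (unadjusted p under 0.05: 2 and 0). Over all tested rows 13.4% rose and 60.3% fell, and these biotypes hold few rows each. Groups did not overlap in 20 of the 24 (83.3%, beside 71.9% of all rows).

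**Figure D2:**
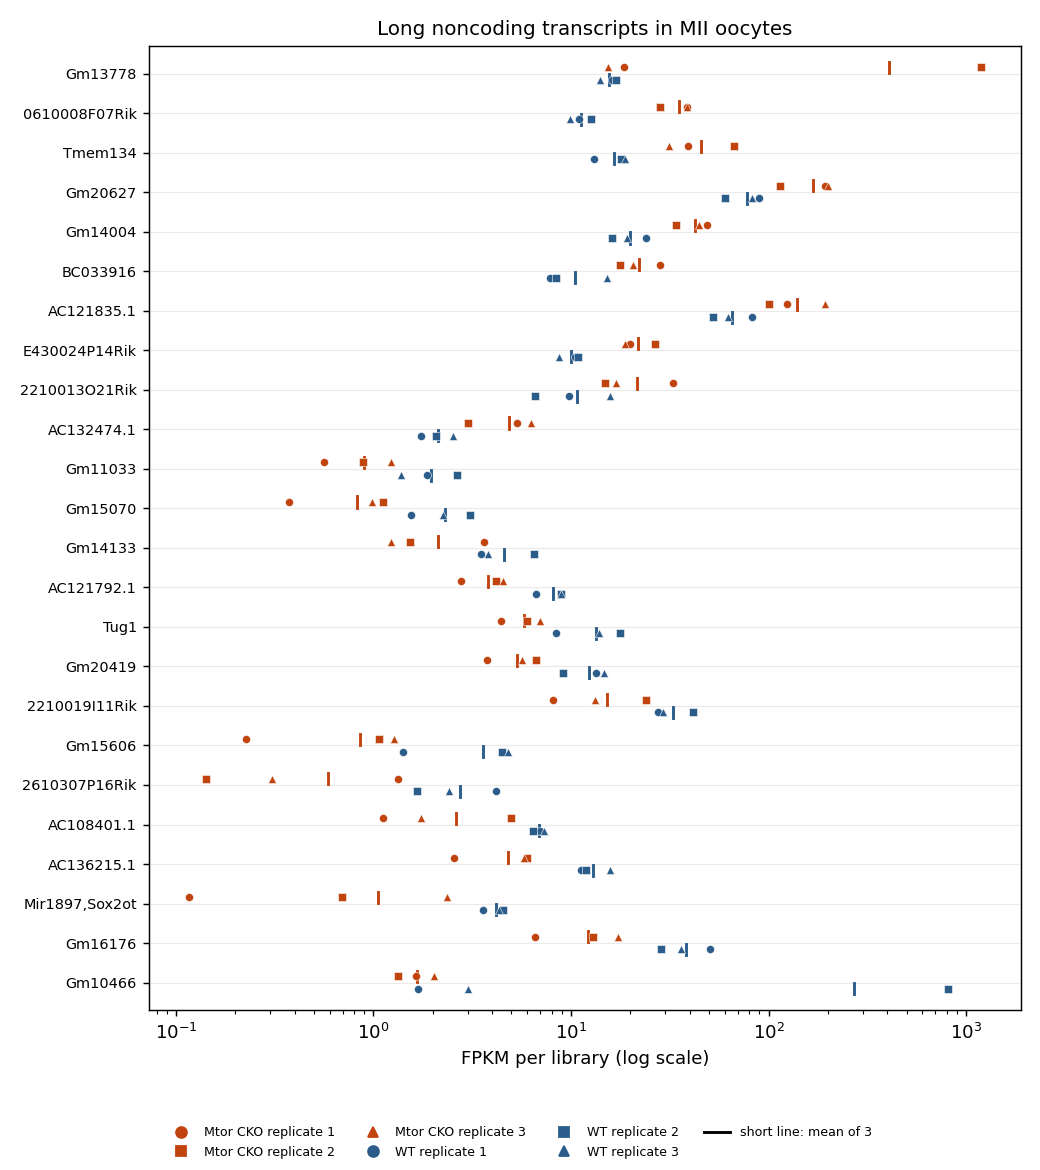
FPKM of the 24 long noncoding rows in each library on a log axis, Mtor CKO in orange above WT in blue, with a short line at each mean. The Gm13778 and Gm10466 means are each set by 1 library, at 1189 and 808 FPKM. In 20 of the 24 rows the groups do not overlap (83.3%, beside 71.9% of all rows), though some groups are spread.

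The last 50 nt of 5 of these transcripts are shown because the kit reads polyadenylated RNA, and the capitals mark the poly(A) signal AATAAA. Gm16176 holds 2 that overlap, of which only the first is in capitals. They come from GENCODE M21 on GRCm38: 0610008F07Rik from chr2:163493807-163541720 (minus), Gm20627 from chr3:96254621-96255469 (minus), Gm14004 from chr2:125124356-125134327 (minus), Gm16176 from chr10:87826389-87863381 (minus) and Tug1 from chr11:3639785-3647536 (minus). The first 3 rose and the last 2 fell.
0610008F07Rik: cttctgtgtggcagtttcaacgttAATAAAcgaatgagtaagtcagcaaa
Gm20627: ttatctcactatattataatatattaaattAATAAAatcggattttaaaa
Gm14004: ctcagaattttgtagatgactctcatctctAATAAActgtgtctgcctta
Gm16176: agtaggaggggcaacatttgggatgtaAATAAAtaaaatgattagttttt
Tug1: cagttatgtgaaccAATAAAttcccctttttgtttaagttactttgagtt

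The letters AATAAA were searched on the transcript strand, in the last 50 nt of the longest listed transcript of each member. They were in 15 of the 23 long noncoding members with a transcript in GENCODE M21 (65.2%). Of all 29924 long noncoding transcripts there, 6991 held them in that window (23.4%). That count takes every transcript of a gene and not only the longest. The members were also sequenced with an oligo(dT) kit, so the 65.2% and the 23.4% are not a like comparison. By direction the letters were in 7 of the 8 members that rose and in 5 of 10 that fell. Many annotated noncoding transcripts are incomplete at the end, so a missing match says only that these letters are not in this window.

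Among long noncoding rows that passed, the largest rise was that of 0610008F07Rik (chr2:163492318-163572910), called Hnf4aos in GENCODE M21, an antisense transcript whose interval takes in Hnf4a and R3hdml on the other strand. It had 38.5, 28.2 and 38.6 FPKM in Mtor CKO eggs, against 11, 12.6 and 9.95 FPKM in WT eggs. The lowest Mtor CKO value was above the highest WT value, and no library stood apart. The log2 difference was 1.56 with a standard error of 0.33 (adjusted p = 0.036). Hnf4a encodes a nuclear receptor of liver and gut and shares no exon with the transcript.

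Tmem134 (chr19:4125934-4132307), named after a transmembrane protein but listed as a processed transcript, had 39, 66.8 and 31.4 FPKM in Mtor CKO libraries, against 13, 17.8 and 18.8 FPKM in WT libraries. The groups did not overlap, and Mtor CKO replicate 2 was the highest. Its log2 difference was 1.36 with a standard error of 0.39 (adjusted p = 0.0362).

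Gm20627 (chr3:96254592-96256277) was the most abundant long noncoding transcript that was called, at 193, 114 and 200 FPKM in Mtor CKO eggs and 89.8, 60.5 and 82.9 FPKM in WT eggs. AC121835.1 (chr8:22628119-22653437), called Gm26909 in GENCODE M21, had 124, 100 and 193 FPKM in Mtor CKO eggs, against 82.1, 52.3 and 62.5 FPKM in WT eggs. Both were higher in each Mtor CKO library than in any WT library, with log2 differences of 1.08 (standard error 0.37, adjusted p = 0.0396) and 1.04 (standard error 0.38, adjusted p = 0.0415). Exons of AC121835.1 overlap those of Polb, the gene of DNA polymerase beta on the opposite strand. The strand setting of the kit and the counting is not given in the sources used here, so reads from such a gene and its antisense partner cannot be told apart.

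Gm14004 (chr2:125124356-125134367) had 48.6, 34 and 44.5 FPKM in Mtor CKO libraries, against 24, 16.2 and 19.2 FPKM in WT libraries. It did not overlap between groups and rose by 1.06 on the log2 scale (standard error 0.34, adjusted p = 0.0374). BC033916 (chr17:33905135-33906675) had 28.3, 17.6 and 20.5 FPKM in Mtor CKO eggs, against 7.82, 8.43 and 15.2 FPKM in WT eggs, with a log2 difference of 1.04 (standard error 0.38, adjusted p = 0.0418). This gene, a lincRNA in the authors' table, is Platr17 in GENCODE M21 and protein-coding there. It lies within 50 kb of Kifc1, a kinesin gene that is also in the table.

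E430024P14Rik (chr17:7881106-7979824), an antisense transcript with exons that overlap those of Rsph3a and Tagap, had 20, 26.6 and 18.8 FPKM in Mtor CKO eggs, against 10.5, 10.8 and 8.7 FPKM in WT eggs. The 2 groups were tight and apart, and the log2 difference was 1.04 with a standard error of 0.33 (adjusted p = 0.0374). AC132474.1, or Gm17540, which shares exon sequence with Gramd1b on the other strand, averaged 4.87 ± 1.68 FPKM in Mtor CKO eggs and 2.11 ± 0.402 FPKM in WT eggs (SD, n = 3 each) and also rose, by 0.88 (adjusted p = 0.0438, and 0.0505 with no filter). 2210013O21Rik did not pass, at 32.9, 14.9 and 17 FPKM in Mtor CKO eggs, against 9.73, 6.57 and 15.7 FPKM in WT eggs (adjusted p = 0.0726). GENCODE M21 lists it as Nbdy, the gene of a small protein of the mRNA decapping machinery.

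Gm16176 (chr10:87826377-87937042) had the largest fall among long noncoding rows that passed. It is Igf1os in GENCODE M21, antisense to Igf1, the insulin-like growth factor gene that lies in its interval without sharing an exon. Its values were 6.54, 13 and 17.2 FPKM in Mtor CKO eggs, against 50.7, 28.4 and 36.1 FPKM in WT eggs. The groups were well apart, and the log2 difference was -1.63 with a standard error of 0.43 (adjusted p = 0.0362).

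Tug1 (chr11:3639793-3648812) was the 1 member on a list of 12 chromatin and nuclear-body lncRNAs. It is an RNA linked to Polycomb repression and needed for male fertility in mice. It had 4.41, 6.02 and 7.01 FPKM in Mtor CKO eggs and 8.42, 17.7 and 13.9 FPKM in WT eggs. Each Mtor CKO value was below each WT value, and the log2 difference was -1.04 with a standard error of 0.39 (adjusted p = 0.0425). Exons of Tug1 overlap an exon of Morc2a on the other strand.

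Mir1897,Sox2ot spans the transcript that overlaps Sox2, the pluripotency factor gene within its interval. It had 0.117, 0.697 and 2.36 FPKM in Mtor CKO eggs and 3.58, 4.54 and 4.35 FPKM in WT eggs. All 3 WT libraries lay close together above the Mtor CKO ones, and the row fell by 1.47 on the log2 scale (standard error 0.40, adjusted p = 0.0362). 2210019I11Rik, which is Plut, the antisense neighbour of the pancreatic factor gene Pdx1, averaged 15.2 ± 8.16 FPKM in Mtor CKO eggs and 32.7 ± 7.57 FPKM in WT eggs (SD, n = 3 each), and its log2 difference was -1.16 (adjusted p = 0.0425).

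A further 7 long noncoding rows fell. AC136215.1 fell by 1.32 and AC108401.1 by 1.28 on the log2 scale. The second of these shares exon sequence with Zfp36l1, the gene of an mRNA decay factor needed for early development. That gene lies on the other strand and matches AC108401.1 at 97% identity or more over at least 0.5 of its length. Reads of the 2 cannot be told apart there, and which gave the values was not tested. 2610307P16Rik fell by 1.25, as did Gm15606, a sense intronic transcript whose row spans 1134636 bp and takes in Opcml, at 0.853 ± 0.552 FPKM in Mtor CKO eggs and 3.58 ± 1.88 FPKM in WT eggs (SD, n = 3 each). Gm20419 fell by 1.07, AC121792.1 by 0.93 and Gm15070 by 0.85. GENCODE M21 calls Gm15070 Trpc5os and lists it as protein-coding. AC121792.1 matches the annotated Platr30 at 97% identity or more over at least 0.5 of its length. Whether the match is a copy or an overlapping gene was not tested. Gm14133 had a log2 difference of -0.88 (adjusted p = 0.0614) and Gm11033 one of -0.64 (adjusted p = 0.0535).

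Of the 11 pseudogenes 10 were tested, and 7 fell and 0 rose (unadjusted p under 0.05: 8 lower and 0 higher). Over all tested rows 60.3% fell and 13.4% rose. The median log2 difference was -1.04, beside -1.03 over all tested rows. With each library centred on its median 0 of the 7 passed, and 1 of them, RP23-21O7.1, turned to 0.18. In 8 of the 11 the groups did not overlap (72.7%, beside 71.9% of all rows). A protein-coding relative in GENCODE M21 was found for 10 of the 11 by sequence, at 65.1% to 98.8% identity, and 4 were at least 95% identical to it. None of these relatives is a row of the table, so how each parent mRNA moved was not analysed here. Reads of near-identical copies cannot be assigned with certainty, and which copy gave them was not tested.

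**Figure D3:**
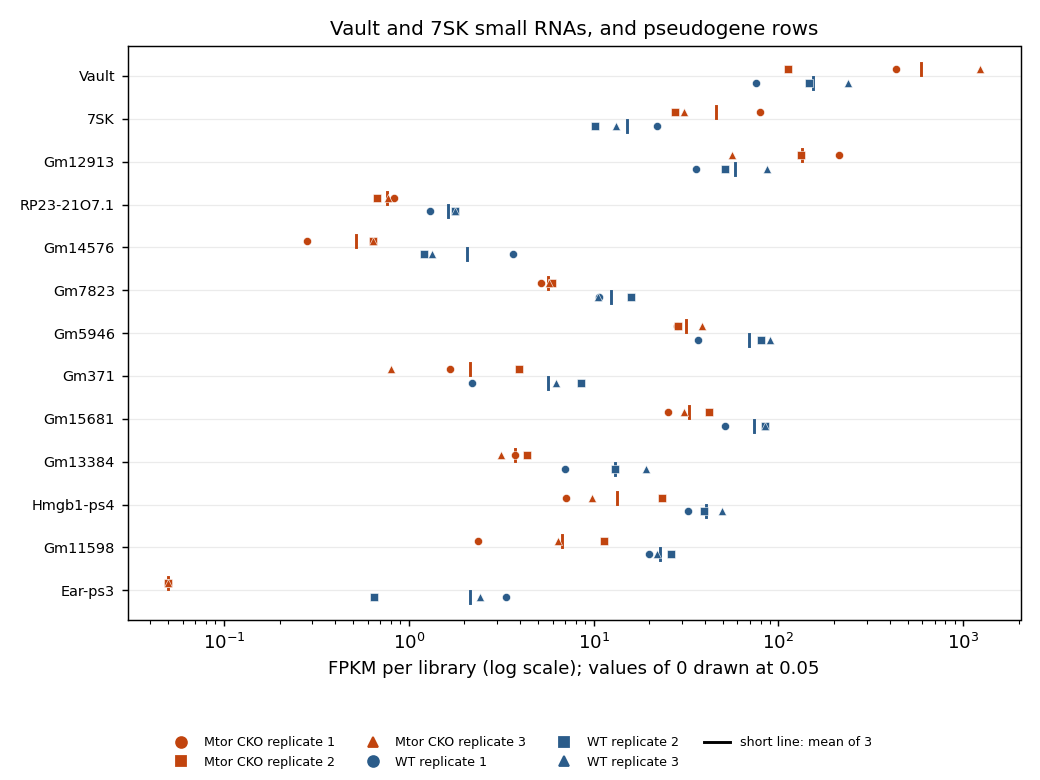
FPKM of the 2 small RNAs and 11 pseudogene rows in each library on a log axis, Mtor CKO in orange above WT in blue, with a short line at each mean and values of 0 drawn at 0.05. Every library of Gm11598, Hmgb1-ps4, Gm13384 and Gm15681 is lower in Mtor CKO than in WT, and Gm12913 overlaps between groups.

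Stretches of 60 nt from 4 pseudogenes that fell or nearly passed are shown beside the coding sequence of the parent gene. They are shown because reads can be told apart only where they cover a base that differs. The windows are only a part of each alignment. Capitals mark the bases that differ. Positions are counted from the 5′ end of each GENCODE M21 transcript (GRCm38). For Gm5946 this is a transcript of the gene that the authors' row does not list.
Gm11598: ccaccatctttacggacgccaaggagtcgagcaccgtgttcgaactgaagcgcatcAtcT
Elob: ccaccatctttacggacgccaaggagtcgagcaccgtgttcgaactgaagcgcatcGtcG
Hmgb1-ps4: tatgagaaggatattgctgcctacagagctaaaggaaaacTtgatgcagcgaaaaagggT
Hmgb1: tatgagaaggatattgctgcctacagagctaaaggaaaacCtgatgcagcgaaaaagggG
Gm15681: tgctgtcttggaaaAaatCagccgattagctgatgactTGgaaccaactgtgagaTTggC
Ppp4r1: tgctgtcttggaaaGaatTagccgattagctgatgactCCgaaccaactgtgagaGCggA
Gm5946: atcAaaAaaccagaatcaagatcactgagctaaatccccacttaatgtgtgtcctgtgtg
Bmi1: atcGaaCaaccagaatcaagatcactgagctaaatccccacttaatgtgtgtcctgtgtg

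The windows hold 2 mismatches for Gm11598 and Elob, 2 for Hmgb1-ps4 and Hmgb1, 7 for Gm15681 and Ppp4r1 and 2 for Gm5946 and Bmi1. They start at base 35 of Gm11598, 462 of Hmgb1-ps4, 153 of Gm15681 and 108 of Gm5946. Each was the 60 nt of the coding sequence whose identity was nearest to that of the whole alignment.

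Gm11598 (chr11:100243273-100243629) is 96.9% identical to Elob, the gene of elongin B, a subunit of transcription and ubiquitin ligase complexes. It had 2.36, 11.4 and 6.4 FPKM in Mtor CKO eggs, against 19.9, 26.3 and 22 FPKM in WT eggs. All WT libraries were above all Mtor CKO libraries, and Mtor CKO replicate 1 was the lowest. The log2 difference was -1.80 with a standard error of 0.49 (adjusted p = 0.0362), the largest fall of a pseudogene. The lincRNA C86187 on chromosome 7 matches it in reverse orientation at 82.3% identity over 355 nt, and that lincRNA is not a row of the table.

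Hmgb1-ps4 (chr19:6592602-6593236), a copy of the chromatin protein gene Hmgb1 at 97.1% identity, had 7.12, 23.4 and 9.78 FPKM in Mtor CKO libraries, against 32.6, 39.8 and 49.7 FPKM in WT libraries. The groups did not overlap, although Mtor CKO replicate 2 stood well above the other two. The log2 difference was -1.67 with a standard error of 0.46 (adjusted p = 0.0362). There are 8 other annotated genes at least 97% identical to it over at least 0.5 of its length, Hmgb1 among them, and the row can stand for any of them.

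Gm13384 (chr2:6132208-6133956), a copy of the ubiquitin ligase gene Traip at 90.4% identity, had 3.78, 4.38 and 3.15 FPKM in Mtor CKO eggs, against 7, 13.1 and 19.3 FPKM in WT eggs. The Mtor CKO values were tight and the WT values were spread, with no overlap. It fell by 1.47 on the log2 scale (standard error 0.42, adjusted p = 0.0362). The lincRNA Gm10857 runs over it on the opposite strand and covers 1086 nt of its transcript, so reads of both lie on the same bases.

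Gm15681, a copy of the phosphatase subunit gene Ppp4r1 at 89% identity whose row spans 721553 bp and takes in Cdh8, was the most abundant pseudogene that passed. It had 25.4, 42.2 and 30.7 FPKM in Mtor CKO libraries, against 51.5, 84.9 and 85 FPKM in WT libraries. Each WT value was above each Mtor CKO value, and the log2 difference was -1.14 with a standard error of 0.37 (adjusted p = 0.0374).

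Gm5946 is 97% identical to Bmi1, the gene of a Polycomb subunit. That identity is of a 2724 nt transcript of the gene that the authors' row does not list, and the row spans 974 bp. It had 28.4, 28.6 and 38.5 FPKM in Mtor CKO eggs, against 36.7, 80.4 and 90.3 FPKM in WT eggs. WT replicate 1 lay among the Mtor CKO values, and the log2 difference of -1.01 did not pass (adjusted p = 0.0511). Without WT replicate 1 it was -1.41 and passed (adjusted p = 0.0427). With any other single library left out it did not pass (limma adjusted p from 0.078 to 0.163).

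Gm7823, a copy of the actin-bundling protein gene Lcp1, averaged 5.64 ± 0.408 FPKM in Mtor CKO eggs and 12.4 ± 3.03 FPKM in WT eggs (SD, n = 3 each) and fell by 0.99 on the log2 scale (adjusted p = 0.0397). Gm14576, related to the zinc finger gene Zpr1, fell by 0.94, and RP23-21O7.1, 98.8% identical to the zinc finger gene Zfp987, fell by 0.57. RP23-21O7.1 no longer passed with a pseudocount of 0.1, with no filter, with a group mean filter or without the variance trend (adjusted p of 0.0521 to 0.0863), and Gm14576 did not without the trend (adjusted p = 0.0507). Their means were at most 0.758 FPKM in Mtor CKO eggs, against 2.07 FPKM in WT eggs. Gm371, the copy most distant from its relative Gmcl1, had a log2 difference of -1.08 (adjusted p = 0.0751).

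Gm12913 (chr4:78773677-78774221) was the 1 pseudogene with a positive difference, at 214, 133 and 56.3 FPKM in Mtor CKO eggs and 36, 51.3 and 87.1 FPKM in WT eggs. The groups overlapped, and its log2 difference of 1.09 did not pass (adjusted p = 0.0826). Ear-ps3, related to the ribonuclease gene Ear14, was listed at 0 in all 3 Mtor CKO libraries, against 3.35, 0.648 and 2.44 FPKM in WT libraries. It did not reach 1 FPKM in 3 libraries and was not tested.

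In the 17 rows that join a protein-coding gene with a noncoding one, 15 were tested, and 2 rose and 8 fell (66.7%, beside 73.7% of all tested rows), with a median log2 difference of -1.11 beside -1.03. The noncoding part is a miRNA, snoRNA or snRNA in 10 of them and a lincRNA, processed transcript or pseudogene in 7. A small RNA inside a host intron is not separated from the host in such a row, so these values cannot be assigned to the noncoding gene.

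Mature sequences are shown for hosted miRNAs of the rows that fell, and for 1 arm of each Dgcr8 hairpin, because a miRNA acts through its seed. They are from RefSeq (GRCm38.p6), and the capitals mark the seed, bases 2 to 8. In all, 11 mature miRNAs of the members were found in that table.
mmu-miR-5625-5p: cCCGGAAGuucuugaguagga
mmu-miR-1894-5p: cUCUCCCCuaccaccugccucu
mmu-miR-1894-3p: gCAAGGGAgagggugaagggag
mmu-miR-1897-3p: uCAACUCGuucuguccggugag
mmu-miR-1306-3p: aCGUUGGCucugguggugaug
mmu-miR-3618-5p: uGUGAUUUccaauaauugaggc

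No seed was shared among these 6. mmu-miR-5625-5p lies in the row 4930471M23Rik, mmu-miR-1894-5p and mmu-miR-1894-3p in Ppp1r10, and mmu-miR-1897-3p in Mir1897,Sox2ot. The last pair, mmu-miR-1306-3p and mmu-miR-3618-5p, lies in Dgcr8.

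Cyp2c29, which the authors join with the pseudogene Cyp2c53-ps, had the largest fall of any called member. Cyp2c29 encodes a cytochrome P450 best known from liver. The row had 6.36, 7.51 and 7.83 FPKM in Mtor CKO eggs, against 37.4, 25.1 and 24 FPKM in WT eggs. The 2 groups were far apart, and the log2 difference was -1.83 with a standard error of 0.34 (adjusted p = 0.0354).

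4930471M23Rik, now Slc35f6, with Mir5625 at its start, had 0.527, 2.95 and 1.58 FPKM in Mtor CKO libraries, against 8.19, 7.04 and 5.93 FPKM in WT libraries. It did not overlap between groups and fell by 1.68 (standard error 0.40, adjusted p = 0.0362). Phb2, the mitochondrial prohibitin gene with a snoRNA in it, had 9.98, 13.2 and 16.2 FPKM in Mtor CKO, against 26.1, 53 and 50.5 FPKM in WT, and fell by 1.6 (standard error 0.39, adjusted p = 0.0362). Each of its Mtor CKO values was below each WT value.

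Ppp1r10, host of Mir1894 and the gene of a nuclear targeting subunit of protein phosphatase 1, had 12.9, 45.4 and 19.9 FPKM in Mtor CKO eggs, against 56.9, 138 and 40.6 FPKM in WT eggs. The groups overlapped, since Mtor CKO replicate 2 was above WT replicate 3, although it passed with a log2 difference of -1.55 (standard error 0.58, adjusted p = 0.0425). Fam53c, joined with a lincRNA, had 7.85, 26.5 and 11.6 FPKM in Mtor CKO eggs, against 34.2, 67.5 and 30.6 FPKM in WT eggs and fell by 1.54 (standard error 0.50, adjusted p = 0.0375). Its groups were apart, with replicate 2 the highest of each.

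The remaining called falls of this class were Onecut1, a transcription factor gene joined with 2 lincRNAs, at -1.11, Zc3h6, a zinc finger gene, at -1.08 and Ripk1, the kinase of necroptosis, at -1.01 (adjusted p = 0.0425, and 0.0506 with no filter). Zc3h6 was the most abundant, averaging 54.2 ± 11.3 FPKM in Mtor CKO eggs and 116 ± 26.4 FPKM in WT eggs (SD, n = 3 each).

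Gm13157 (chr4:147753974-147809840), the zinc finger gene Zfp984 joined with a lincRNA, rose with 11.2, 4.79 and 8.2 FPKM in Mtor CKO eggs and 1.84, 2.33 and 2.62 FPKM in WT eggs. All Mtor CKO values were above all WT values, and the log2 difference was 1.42 with a standard error of 0.37 (adjusted p = 0.0362). It was the 1 member within 10 Mb of Mtor on chromosome 4. Rps20, a ribosomal protein gene with a snoRNA in it, had 32.2, 12.2 and 16.8 FPKM in Mtor CKO eggs, against 10.9, 7.59 and 6.93 FPKM in WT eggs. The groups did not overlap and the log2 difference was 1.09 (standard error 0.43, adjusted p = 0.0459, and 0.0507 with no filter). Rdh13 had a log2 difference of -1.05 (adjusted p = 0.0578), and Stam2 and Rab11fip5 did not reach 1 FPKM in 3 libraries and were not tested. Rpl27a, the other ribosomal host of a snoRNA, lay on the opposite side, with a log2 difference of -1.13 that did not pass (adjusted p = 0.0683).

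Some rows were high in a single library. In 7 of the 62 members the highest library was at least 5 times the second highest, beside 4.26% of all rows (22 of 516). These rows were chosen after their values were seen. Gm10466 had 1.64, 1.33 and 2.02 FPKM in Mtor CKO eggs, against 1.68, 808 and 3.01 FPKM in WT eggs. Gm13778 had 18.7, 1189 and 15.4 FPKM in Mtor CKO eggs, against 16, 16.9 and 14 FPKM in WT eggs. Apart from the 1 high library all values lay between 1.33 and 3.01 FPKM for Gm10466 and between 14 and 18.7 FPKM for Gm13778, and neither passed (adjusted p = 0.146 and 0.169). Dgcr8, the gene of the miRNA processing partner of Drosha, had 1.5, 0.465 and 0.89 FPKM in Mtor CKO libraries, against 72.5, 1.85 and 2.24 FPKM in WT libraries (adjusted p = 0.0806). In Dgcr8 the other 2 WT libraries were still above every Mtor CKO library.

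**Figure D4:**
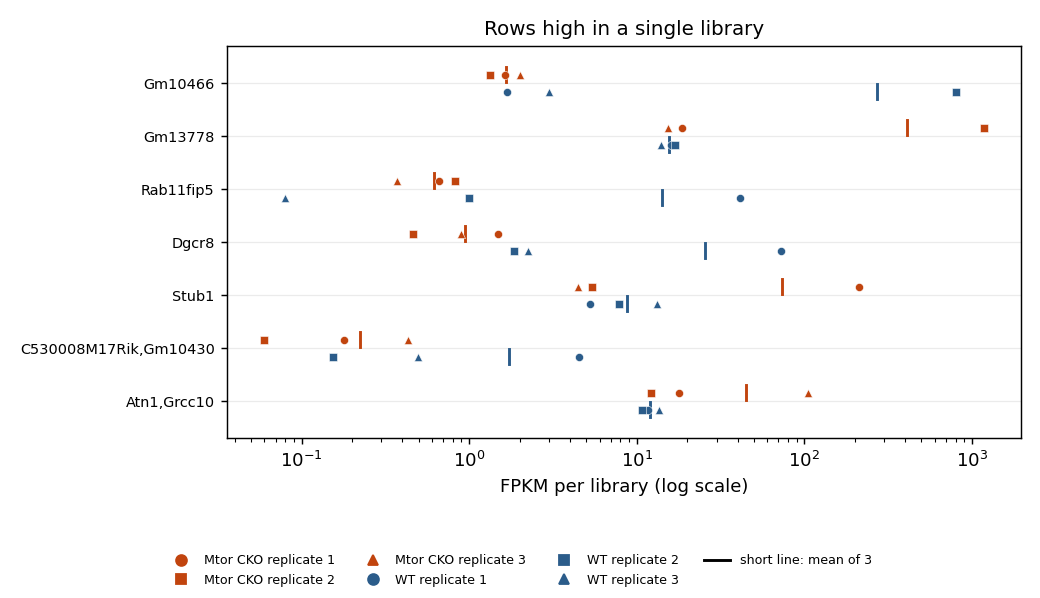
FPKM per library on a log axis for the 7 members whose highest library is at least 5 times the next, Mtor CKO in orange above WT in blue, with a short line at each mean. WT replicate 1 is the high library in 3 of them, and the remaining 4 are high in WT replicate 2 or in 1 of the 3 Mtor CKO libraries.

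Stub1 had 211 FPKM in Mtor CKO replicate 1, and 5.43 and 4.47 FPKM in the other Mtor CKO libraries, against 5.25, 7.88 and 13.2 FPKM in WT. Its row covers 191110 bp and takes in 17 other protein-coding genes, and where in that interval the value arose was not tested. Without Mtor CKO replicate 1 the log2 difference was -0.64, against 1.08 with all libraries. Atn1,Grcc10 was high in Mtor CKO replicate 3 and Rab11fip5 in WT replicate 1.

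Among the members that fell, some libraries were often at the edge of their group. Of the 31 members that fell, Mtor CKO replicate 1 was the lowest Mtor CKO library in 26 and Mtor CKO replicate 2 the highest in 20. WT replicate 2 was the highest WT library in 17 of the 31 and WT replicate 1 the lowest in 20. Of the 11 that rose, Mtor CKO replicate 2 was instead the lowest Mtor CKO library in 9, and WT replicate 1 was the highest WT library in 5. The median over all rows was 3.77, 5.4 and 4.28 FPKM in Mtor CKO replicates 1, 2 and 3, against 7.37, 9.18 and 8.5 FPKM in WT replicates 1, 2 and 3. Over the members it was 4.8, 6.01 and 5.96 FPKM in the Mtor CKO libraries, against 10.1, 9.49 and 10.2 FPKM in the WT libraries. By these medians WT replicate 2 was the highest WT library over the table and the lowest over the members, where the WT medians lay close together. It was not the lowest within any class. WT replicates 1, 2 and 3 had medians of 9.07, 9.93 and 11.9 FPKM over long noncoding rows and 10.7, 15.9 and 19.3 FPKM over pseudogenes.

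Length also went with direction. The longest annotated transcript had a median of 839 nt in the 9 rows with no protein-coding gene that rose, against 1808 nt in 17 of the 18 that fell. For long noncoding rows alone it was 844 nt against 1930.5 nt, and over all called rows in the whole set 1719 nt against 3095 nt. Shorter transcripts among the rises were thus seen over the whole table too. For Mir1897,Sox2ot the annotation holds only a 272 nt element, which is the length used. Length, 7SK's at 331 nt to Tug1's at 6719 nt, enters FPKM as its divisor, and its part in the directions was not tested.

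**Figure D5:**
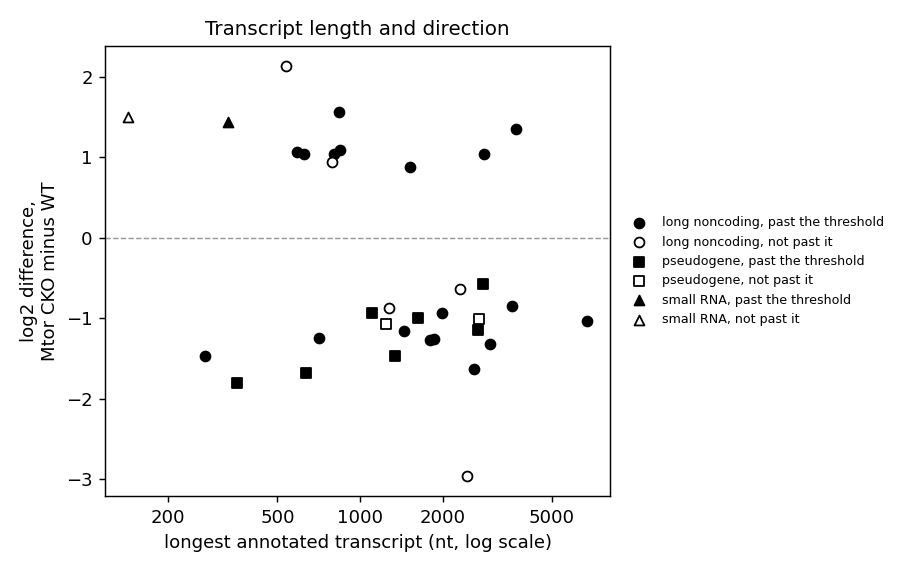
Longest annotated transcript in nt (log axis) against the log2 difference between Mtor CKO and WT eggs for tested rows with no protein-coding gene. Circles are long noncoding transcripts, squares pseudogenes and triangles small RNAs, filled where the adjusted p was at most 0.05. Of the 9 called rises, 6 lie at or below 849 nt.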

How the data were processed

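RNA of 6 samples, 3 Mtor CKO and 3 WT, was copied into cDNA by a SMARTer kit for low input, then put through 17 cycles of PCR, per the labels' protocols. TopHat2 2.0.8b, Cufflinks 2.1.1 and Cuffdiff and the build mm10 are named in the submitters' processing notes. The authors deposited 1 FPKM value per gene and library, with the log2 fold change, p-value and q-value of their own comparison, and every deposited row has an absolute log2 fold change over 1. Read depth cannot be had from FPKM and is unknown, so no counting interval is given. The strand setting and the sharing of multi-mapped reads are not given in the sources used here. Whether the 3 libraries of a group came from separate mice is not stated, so p-values measure the spread between libraries, which may be technical.

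The members and gene lists were chosen with earlier results of these data known. All rows with at least 1 FPKM in at least 3 libraries (471 of 516) were fitted with limma 3.58.1 (trended eBayes, R 4.3.3) on log2(FPKM + 1), two-sided, with Benjamini-Hochberg adjustment over all 471 and a threshold of 0.05. Fold changes on this scale understate those of low genes. Differences are Mtor CKO minus WT throughout, and the deposited fold changes have the same direction. The fit was tested on simulated data. Alternatives were the pseudocount, the filter, the variance trend, centring of libraries, a replicate block, each library left out and members with no exon overlap. Leaving out the rows of several protein-coding genes was chosen after seeing the data.

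Values of every library are given for the 10 largest rises and 10 largest falls among called members with a mean of at least 5 FPKM, the 5 highest means, the largest difference of each class, members with a group at 0 and members on a list. Others were chosen after their values were seen. Besides the list that holds Tug1, a list of 7 zygotic and repeat-linked RNAs had 1 row in the table, D6Ertd527e, which is listed as protein-coding and so is not a member. The lists of snoRNA hosts (28), imprinted RNAs (13), X inactivation RNAs (4) and miRNA hosts (10) had 0 rows by symbol, and so did pseudogenes of translation genes. The member 7SK is Rn7sk of the first of these lists under another name. Positions in the deposited table were raised by 1 at the start, after which 19 of 34 single-gene members matched the start of GENCODE M21 (GRCm38). Identities come from BLAST 2.17.0 against GENCODE M21 transcripts.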

Additional observations from a re-analysis of the deposited data

How the results depend on the processing

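The number of members called was 39 with a pseudocount of 0.1, 40 with no filter, 43 with a group mean filter and 40 without the variance trend, beside 42 as reported. It was 33 of 45 where exons overlapped no other protein-coding gene and 37 of 51 without the rows of several protein-coding genes. Centring each library on its median gave 89 called rows (86 higher, 3 lower) in the whole table beside 347, 12 members (12 higher, 0 lower) beside 42, and 10 members with no protein-coding gene (10 higher, 0 lower) beside 27. It shifts every log2 difference by 0.75, and the table's rows were picked for a difference, so their median is no fixed point. Under it Gm11033 turned to 0.11, Ipo11,Lrrc70 to 0.064 and RP23-21O7.1 to 0.18, while 29 of the 31 members that fell stayed below 0.

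With each library left out in turn the calls ranged from 3 to 383 in the table, from 0 to 43 among members and from 0 to 29 among those with no protein-coding gene. The table's count was lowest without WT replicate 2, where 19 members were under an unadjusted p of 0.05. Such fits have 2 libraries in 1 group, and the cause of the drop was not tested. Without Mtor CKO replicate 1 Stub1 reversed to -0.64. With the replicate number as a block 405 rows, 48 members and 29 members with no protein-coding gene were called. Same-numbered libraries deviated together with correlations of 0.115, 0.24 and 0.0843. Among unlike numbers WT replicate 3 and Mtor CKO replicate 1 had 0.118, and the others lay between -0.218 and -0.00681. Deviations within groups of 3 libraries cannot decide whether the numbers pair the samples.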

Other observations

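The 8 rows of several protein-coding genes hold no noncoding gene in their biotype. Of these, 7 were tested, and 5 fell and 0 rose (unadjusted p under 0.05: 5 lower and 0 higher), with a median log2 difference of -0.85. Over all tested rows 73.7% passed and 60.3% fell, and here 71.4% passed. Efna5, the gene of a membrane-bound ephrin ligand, had 9.57, 41.7 and 17.2 FPKM in Mtor CKO eggs, against 42, 114 and 56.1 FPKM in WT eggs. Each WT value was above each Mtor CKO value, if barely, and the log2 difference was -1.70 with a standard error of 0.57 (adjusted p = 0.0396). RPP14,Rpp14 fell by 1.16, Tm7sf2,Vps51,Zfpl1 by 1.15 and Cyp4v3,Klkb1 by 0.85. Ipo11,Lrrc70 also fell, with a log2 difference of -0.69. With a pseudocount of 0.1 Ipo11,Lrrc70 and Tm7sf2,Vps51,Zfpl1 no longer passed (adjusted p = 0.0536 and 0.0505), and without the variance trend Ipo11,Lrrc70 did not (adjusted p = 0.0636). Mon1b,Syce1l, a row with a synaptonemal complex gene, had a log2 difference of -0.84 (adjusted p = 0.0659), and Dnaaf3,Tnni3 one of 1.14 (adjusted p = 0.0676). C530008M17Rik,Gm10430 was not tested, with 4.55 FPKM in WT replicate 1 and at most 0.498 FPKM elsewhere.

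D6Ertd527e, an abundant row that is listed as protein-coding, averaged 999 ± 280 FPKM in Mtor CKO eggs and 2020 ± 480 FPKM in WT eggs (SD, n = 3 each), and fell by 1.03 on the log2 scale (limma adjusted p = 0.0425).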
